A study of Saccharomyces cerevisiae with 7 samples.

Results

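The histone genes of Saccharomyces cerevisiae were followed in yeast grown for 24 h in simulated asbestos mine drainage media or in control media. The 10 genes were HTA1 and HTA2 (histone H2A), HTB1 and HTB2 (H2B), HHT1 and HHT2 (H3), HHF1 and HHF2 (H4), HHO1 (linker histone H1) and HTZ1 (the H2A variant H2A.Z), drawn by gene symbol from the annotation of the array. Of these, 9 had a probeset (the short probes that together read 1 transcript) among the 5449 S. cerevisiae genes named there. HHF2 is named by none of the probesets, so its level is not given. Every culture was strain NRRL Y-12632 (ATCC 18824), cir+, started from the same pre-culture in control media and shaken at 30 °C. There were 4 mine drainage cultures, in YPD (a rich medium of yeast extract, peptone and glucose) made with filtered water that had stood on asbestos mine tailings, and 3 control cultures, in YPD made with deionized water. RNA from each culture went to its own Affymetrix Yeast Genome 2.0 array.

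Nucleosomes hold pairs of each core histone, H2A, H2B, H3 and H4, with DNA wrapped around them. Budding yeast carries each core histone as a pair of gene copies, and each copy lies head to head with the gene of its partner histone, so that both are transcribed outward from a shared stretch of DNA. In the gene order of the R64 assembly, 4 such divergent pairs were found, HTA1 with HTB1, HTA2 with HTB2, HHT1 with HHF1 and HHT2 with HHF2. Their transcription is known to rise in S phase, when new chromatin is assembled, and to be held down outside it by the HIR complex, which acts on all of these pairs but HTA2-HTB2. HTZ1 and HHO1 stand alone, and HTZ1 is not tied to S phase in the same way.

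The authors' values are log2 signals from the Robust Multichip Average (RMA), which corrects background, equalizes the distributions of the arrays and combines the probes of a probeset, and each difference is mine drainage minus control. Over the 7 arrays the 9 chosen histone probesets lay between 8.38 and 10.3. The 9 histone probesets for fission yeast on the same array, a species not present here, lay between 0.606 and 2.19, and the 95th percentile of all 1746 fission yeast probesets was 1.52. The probesets chosen for HTA2 and HHF1 have identifiers that mark probes shared by several transcripts, and the study's own annotation gives the HHT2 probeset to both HHT1 and HHT2. Signals of different probesets are not comparable as amounts of RNA, so levels were compared only between arrays. The copies of a core histone have closely similar coding sequences, and how far the probeset of a copy also reads the other was not tested.

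Of the 9 histone genes measured, HTB2 and HHT2 rose in mine drainage, by 1.52-fold and 1.39-fold, and the other 7 did not pass the test. The test was limma, a linear model whose error borrows from all probesets, with Benjamini-Hochberg adjusted p values and a threshold of 0.05. The 2 calls make 22.2% of the 9, where 31.6% of all 5498 S. cerevisiae probesets were called, 14.5% as higher and 17.1% as lower. The histone genes were not called more often than the array as a whole. The same 2 genes had an unadjusted p under 0.05, as had 44.3% of all probesets, and the same 2 had groups that did not overlap, as had 38.2%. Only HTB2 was called with a fold change of at least 1.5, as were 5.86% of all probesets, and no histone gene was called lower. RNA was taken from whole cultures, so fewer cells with a transcript and less of it per cell cannot be told apart.

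**Figure D1:**
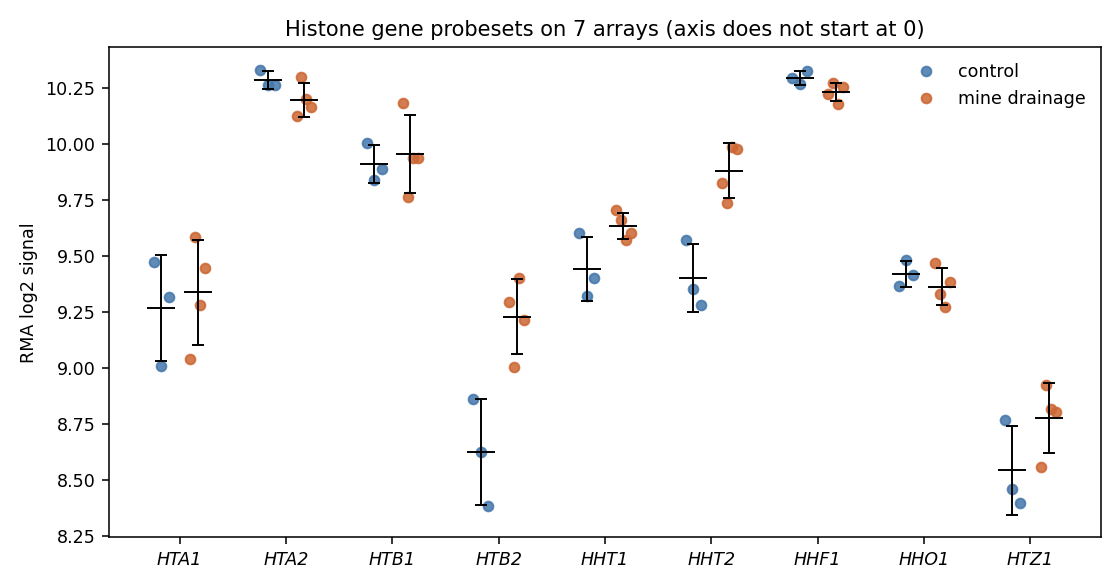
RMA log2 signal (vertical axis) of the 9 histone genes with a probeset, for the 3 control arrays (blue) and the 4 mine drainage arrays (orange), with the mean and SD of each group in black. For HTB2 and HHT2 all mine drainage points lie above all control points, and for the other 7 genes the groups overlap.

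HTB2, which encodes the second H2B copy, had log2 signals of 8.86, 8.63 and 8.38 on control arrays 1 to 3, and of 9.29, 9.0, 9.40 and 9.21 on mine drainage arrays 1 to 4. The lowest mine drainage value exceeded the highest control value, as for 17.7% of all probesets tested. Control replicate 1 was the control nearest to the mine drainage arrays. The mean was 9.23 ± 0.17 (SD, n = 4) against 8.62 ± 0.24 (SD, n = 3), a log2 difference of 0.61 (standard error 0.14, limma adjusted p = 0.0107), larger than the difference of 94.6% of all probesets. HTB1, the other H2B copy, had 10.00, 9.84 and 9.89 in control and 10.18, 9.76, 9.94 and 9.94 in mine drainage. These groups overlapped, with the highest and the lowest of all 7 values in mine drainage replicates 1 and 2, and the difference was 0.04 (95% interval -0.21 to 0.30, limma adjusted p = 0.789).

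The copies of H2A did not pass the test. HTA1 had log2 signals of 9.47, 9.01 and 9.32 in control and 9.04, 9.59, 9.28 and 9.45 in mine drainage, with an SD of 0.24 and 0.23. Its groups overlapped over most of their range, and the difference was 0.07 (95% interval -0.27 to 0.41, limma adjusted p = 0.748). HTA2 had 10.33, 10.26 and 10.26 in control and 10.12, 10.30, 10.20 and 10.17 in mine drainage, a difference of -0.09 (95% interval -0.29 to 0.11, limma adjusted p = 0.466). Only mine drainage replicate 2 reached into the control range. A further HTA2 probeset, whose identifier does not mark shared probes, gave -0.09 as well (limma adjusted p = 0.436).

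Among the H3 genes, HHT2 had log2 signals of 9.57, 9.35 and 9.28 in control and 9.82, 9.73, 9.99 and 9.98 in mine drainage. The groups did not overlap, and again control replicate 1 lay nearest to mine drainage. The mean was 9.88 ± 0.12 (SD, n = 4) against 9.40 ± 0.15 (SD, n = 3), a log2 difference of 0.48 (standard error 0.11, limma adjusted p = 0.0118), above that of 90.6% of all probesets. HHT1 had 9.60, 9.32 and 9.40 in control and 9.70, 9.66, 9.57 and 9.60 in mine drainage. Mine drainage replicate 3 lay just below control replicate 1, and the difference of 0.19 did not pass (95% interval -0.03 to 0.41, limma adjusted p = 0.159). Both genes encode the same H3 protein, and the HHT2 probeset may also read HHT1 transcripts, as noted above.

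HHF1, for histone H4, had 10.29, 10.27 and 10.33 in control and 10.22, 10.27, 10.18 and 10.26 in mine drainage. The shared probeset reads these arrays within a narrow band, with an SD of 0.030 in control and 0.042 in mine drainage. The difference was -0.06 (95% interval -0.25 to 0.13, limma adjusted p = 0.591), so a change of the size seen for HTB2 or HHT2 lies outside the interval of this H4 probeset.

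HHO1, the linker histone gene, had log2 signals of 9.36, 9.48 and 9.41 in control and 9.47, 9.33, 9.27 and 9.38 in mine drainage. Its groups overlapped, and the difference was -0.06 (95% interval -0.26 to 0.15, limma adjusted p = 0.665). HTZ1, whose protein replaces H2A in nucleosomes next to many promoters, had 8.77, 8.46 and 8.40 in control and 8.56, 8.92, 8.82 and 8.80 in mine drainage. Here 3 of the 4 mine drainage arrays lay above all controls and mine drainage replicate 1 did not. The difference was 0.23 (95% interval -0.05 to 0.51, limma adjusted p = 0.179). For comparison, ACT1, the actin gene, had 11.65 ± 0.081 (SD, n = 4) in mine drainage and 11.60 ± 0.013 (SD, n = 3) in control (limma adjusted p = 0.727).

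**Figure D2:**
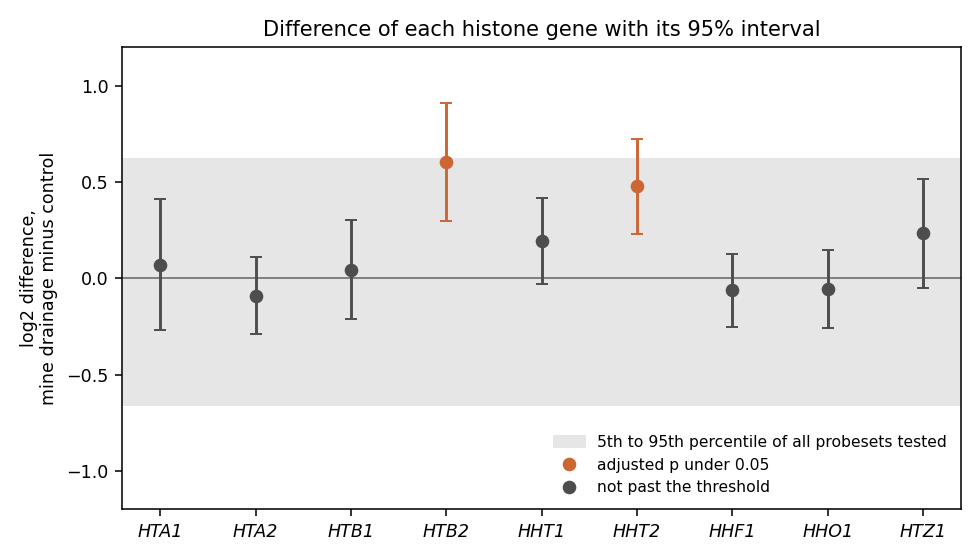
Log2 difference, mine drainage minus control (vertical axis), of each histone gene with its 95% interval from limma, over the range between the 5th and 95th percentile of all probesets tested (grey band, -0.66 to 0.62). HTB2 at 0.61 and HHT2 at 0.48 (orange) have intervals above 0, and the intervals of the other 7 genes include 0.

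The calls of HTB2 and HHT2 did not hold in every setting. Without control replicate 1 the differences were larger: HTB2 differed by 0.72 (limma adjusted p = 0.00625), HHT2 by 0.56 (0.0076), HHT1 by 0.27 (0.0637) and HTZ1 by 0.35 (0.0606). HHT2 missed the threshold without control replicate 2 (0.45, limma adjusted p = 0.0596) and without control replicate 3 (0.42, limma adjusted p = 0.0545), while HTB2 stayed past it without any single array (the highest limma adjusted p was 0.0492). Calls higher over all probesets were 324 without control replicate 2 and 415 without control replicate 3, in place of 795. In the one-way analysis of variance that the methods name, fitted to each probeset on its own, HTB2 had an adjusted p of 0.058 and HHT2 of 0.0476, with 13.3% of all probesets called.

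The 3' minus 5' signal over 8 control transcripts, a common measure of RNA and labelling quality, was lower on average in mine drainage. It was 0.694 ± 0.157 (SD, n = 4) in mine drainage and 0.946 ± 0.175 (SD, n = 3) in control, with overlapping groups. Not all of the 8 transcripts moved that way. SRB4 ran from 2.31 to 2.58 in control and from 1.51 to 1.74 in mine drainage, but EAF5 from 0.16 to 0.46 and from 0.18 to 1.25. With the mean over the 8 transcripts as a covariate, HTB2 differed by 0.38 (limma adjusted p = 0.131) and HHT2 by 0.37 (limma adjusted p = 0.119).

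Whether the copies of a histone changed unequally was asked within each array, from the log2 signal of one copy minus that of the other, which leaves out any shift that both share. There were 4 such comparisons, each tested two-sided by exact permutation of the arrays, whose 35 splits allow no p below 0.0286. HTB1 minus HTB2 was 1.15, 1.21 and 1.50 in control and 0.89, 0.76, 0.54 and 0.72 in mine drainage. The groups did not overlap, and the difference of the means was -0.56. The exact p was 0.0286, the smallest possible, but 0.0571 after adjustment over the 4 comparisons, so this difference missed the threshold of 0.05. A comparison at the smallest p passes this adjustment only if most of the 4 reach it. The miss thus follows in part from the few arrays and is not read as a lack of difference. HHT1 minus HHT2 was 0.03, -0.03 and 0.12 in control and -0.12, -0.08, -0.42 and -0.37 in mine drainage, which did not overlap either but missed the threshold (difference -0.29, exact p = 0.0857, adjusted 0.114). The study's own annotation gives the HHT2 probeset to both H3 genes, so this comparison may not separate the copies.

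For the H2A genes, the HTA2 probeset without shared probes was used. HTA1 minus HTA2 was -0.79, -1.18 and -0.91 in control and -1.04, -0.63, -0.86 and -0.66 in mine drainage, with overlapping groups (difference 0.16, exact p = 0.314, adjusted 0.314). HTZ1 minus the mean of HTA1 and HTA2 was -1.10, -1.14 and -1.38 in control and -1.01, -0.98, -0.89 and -0.97 in mine drainage. HTZ1 thus stood higher against the H2A genes on every mine drainage array, by a mean of 0.24, or by 0.16 without control replicate 3. This too was at the smallest possible p and missed the threshold after adjustment (exact p = 0.0286, adjusted 0.0571), with the same limit.

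**Figure D3:**
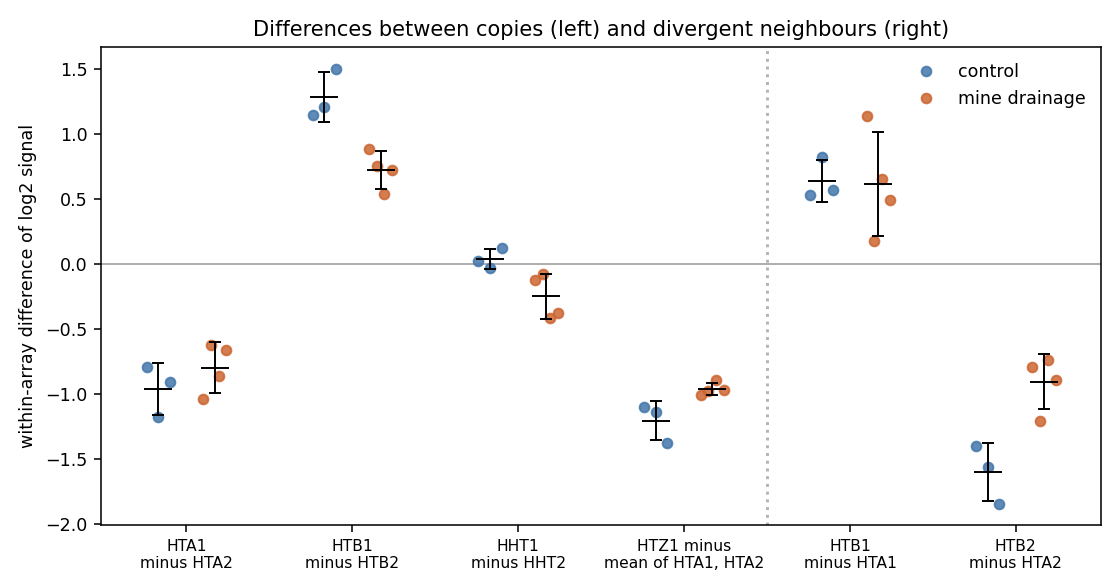
Within-array difference of log2 signal (vertical axis) between copies of a histone gene or between divergent neighbours, for control (blue) and mine drainage (orange) arrays, with the mean and SD in black. HTB1 minus HTB2 is lower and HTB2 minus HTA2 higher on all 4 mine drainage arrays than on all 3 control arrays, while HTB1 minus HTA1 overlaps.

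The divergent neighbours were set side by side after their values had been seen, and without a test. HTB2 minus HTA2 was -1.40, -1.56 and -1.84 in control and -0.79, -1.21, -0.74 and -0.89 in mine drainage, a mean difference of 0.70. The H2B gene of this pair was thus higher against its H2A neighbour on each mine drainage array. HTB1 minus HTA1 was 0.53, 0.83 and 0.57 in control and 1.14, 0.18, 0.66 and 0.49 in mine drainage, a mean difference of -0.03. Mine drainage replicates 1 and 2 lay at the ends of this range, because replicate 1 had the highest HTB1 and nearly the lowest HTA1 signal and replicate 2 the lowest HTB1 and the highest HTA1 signal.

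Once each group's mean was removed, the deviations of some histone genes ran together or apart among replicates. Over the 7 arrays, deviations of HTB2 and HHT2 had a correlation of 0.86, those of HTA1 and HTA2 of 0.78, and those of HTZ1 with HTA1 and HTA2 of 0.79 and 0.84. HHO1 ran against HTZ1 (-0.74), HTA1 (-0.69) and HTA2 (-0.68), HTB2 against HHF1 (-0.73), and HTB1 against HTA2 (-0.65) and its neighbour HTA1 (-0.47). These are descriptions over few arrays, whose probesets share each array's RNA and normalization. The pairs named were picked from all pairs of histone genes, and none was tested. Some left out were larger than some named, such as HTA1 with HHF1 (0.61) and HTB1 with HTB2 (0.58).

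The next measure of likeness kept the difference between the conditions. Of all other probesets that name a single gene, those most like the mean profile of the 7 core histone probesets were RPL15A, a protein of the large ribosomal subunit with a near-identical copy elsewhere in the genome (Pearson r = 0.995 over 7 arrays), SFT2, of transport to the Golgi (0.990), SEG2, an eisosome gene (0.9896), TUF1, the mitochondrial elongation factor Tu (0.985), and NAT5, a subunit of an N-terminal acetyltransferase (0.981). Of these 5 genes, 4 were themselves called higher in mine drainage, TUF1 being the exception (limma adjusted p = 0.125), so the likeness includes the condition. They were picked as the highest of all such probesets over only 7 arrays, so values near 1 come in part from the choice. The core histone probesets did not all run together (HTB2 had r = 0.97 with HHT2 but -0.86 with HHF1), so their mean is not the profile of each.

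Genes that regulate histone transcription were mostly lower. Of the 12 regulators listed, 8 fell, none rose and 4 did not pass (limma adjusted p under 0.05, with 17.1% of all probesets called lower), and the median log2 difference was -0.38, beside -0.03 over all probesets tested. For 9 of the 12 every mine drainage value was below every control value, which held for 20.5% of all probesets. All 4 subunits of the HIR complex, the repressor of histone genes outside S phase, were among the 8, though with the 3' to 5' covariate only HIR1 passed, and with the methods' analysis of variance only HIR1 and HIR3. HIR1 had 7.06, 7.27 and 7.36 in control and 6.34, 6.54, 6.31 and 6.51 in mine drainage, a fall with no overlap between the groups (difference -0.81, standard error 0.11, limma adjusted p = 0.00248). HIR3 and HPC2 fell by 0.49 and 0.41, and HIR2 by 0.35.

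The other regulators that fell were MBP1, SWI6, ASF1 and SPT21. MBP1, the DNA-binding subunit of the MBF factor of the G1 to S transition, had 7.78, 7.83 and 8.06 in control and 7.26, 6.85, 7.01 and 7.03 in mine drainage. Its groups lay far apart for their spread (difference -0.85, standard error 0.12, limma adjusted p = 0.00254). SWI6, the partner of MBP1 and SWI4, fell by 0.38, ASF1, an H3-H4 chaperone that works with HIR, by 0.70, and SPT21, which acts with the activator SPT10, by 0.37. SPT10 itself did not pass (-0.18, limma adjusted p = 0.26), nor did RTT106 (-0.12), YTA7 (-0.25) or SWI4 (0.28, limma adjusted p = 0.103). The values of these 4, and of HIR2, SWI6, ASF1 and SPT21, lie outside the naming rule and were chosen after they were seen.

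HIR1 and MBP1 passed in all 18 alternative settings and HIR3 in 17 of 18, the exception being the 3' to 5' covariate (limma adjusted p = 0.0616). The other 5 were lost more often: HPC2, HIR2 and SPT21 passed in 9 of the 18, ASF1 in 11 and SWI6 in 12. The count of regulators lower was 3 in the methods' analysis of variance, 3 with the 3' to 5' covariate, 3 with the replicate number as a block and 4 once a trend of the differences with coding length was subtracted, where SWI4 rose (0.42, limma adjusted p = 0.0292), as it did without control replicate 1 (0.42, limma adjusted p = 0.0204). The count was 3 without control replicate 2 and 4 without control replicate 3 or mine drainage replicate 3 or 4. Over all probesets, calls lower numbered 942 in the limma fit above. They numbered 368 in the analysis of variance, 283 with the covariate, 497 with the block and 740 with the trend subtracted. Without control replicate 2 or 3 or mine drainage replicate 3 or 4 they numbered 364, 446, 591 and 607. The regulators have a median coding length of 2457 bases, against 1230 over all probesets tested and 312 to 777 for the histone genes, whose own differences moved by at most 0.04 with that trend.

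Lists of factors that carry, exchange or modify histones each had more genes lower than higher, as had the array as a whole (17.1% lower and 14.5% higher). The share lower ran from 22.2% for deacetylation and 25% for the H2A.Z remodelers to 34.8% for methylation and ubiquitylation. Of 20 chaperones and assembly factors 6 fell and 1 rose (median -0.20): RLF2, the large subunit of CAF-1, fell by 0.65, HIF1, a chaperone of H3 and H4, by 0.71, and CHZ1, a chaperone of H2A.Z with H2B, by 0.48, while NHP6A, a DNA-bending protein that helps open nucleosomes, rose by 0.93. Of 24 genes of the SWR1 and INO80 remodelers, which place and move H2A.Z, 6 fell and 2 rose (median -0.05, or 0.01 after a further quantile normalization). SWR1, the ATPase that inserts H2A.Z, fell by 0.82, and the INO80 subunit genes IES1 and IES2 by 1.02 and 1.00, while IES4 rose by 0.42. The limma adjusted p values of these 8 named genes ran from 0.00195 to 0.0149. In the methods' analysis of variance 1 chaperone gene was called lower and none higher. Of the remodeler genes 3 were called lower and 1 higher there.

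Of 24 genes of histone acetylation 8 fell and 1 rose (median -0.24), or 4 and none in the methods' analysis of variance. Among those that fell were SAS3, the acetyltransferase of the NuA3 complex, by 0.95, and SAS4 by 0.80. EAF7 and EPL1, of the NuA4 complex, fell by 0.90 and 0.68. Of 27 deacetylation genes 6 fell and 2 rose (22.2% and 7.41%, median -0.19). No gene was higher without control replicate 2 or 3 or in the methods' analysis of variance. The deacetylase genes HOS1 and HOS3 were lower by a log2 difference of -0.80 and -0.60, HDA2 of -0.69 and SET3 of -0.57. The 2 that rose were deacetylase genes too, HST4 by 0.47 and HDA1 by 0.37, and were named after their values had been seen. Histone methylation and ubiquitylation had 8 of 23 genes lower and 5 higher (median -0.21). The shares were 34.8% and 21.7%, beside 17.1% and 14.5% of all probesets. In the methods' analysis of variance 2 were lower and 1 higher, and with the coding length trend subtracted 4 and 4. The median was -0.10 with that trend subtracted and -0.09 after a further quantile normalization. Among these, SET1, the H3 lysine methyltransferase of the COMPASS complex, fell by 0.50, its partner SHG1 by 0.63 and LGE1, which works with the ubiquitin ligase of H2B, by 0.50, while SGF11, of the module that removes ubiquitin from H2B, rose by 0.70. Of the 3 genes around the centromeric H3 variant, PSH1, a ubiquitin ligase for that variant, fell by 0.85, and CSE4, the variant itself, had a difference of -0.38 that did not pass (limma adjusted p = 0.0718). CSE4 was named after its value had been seen.

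**Figure D4:**
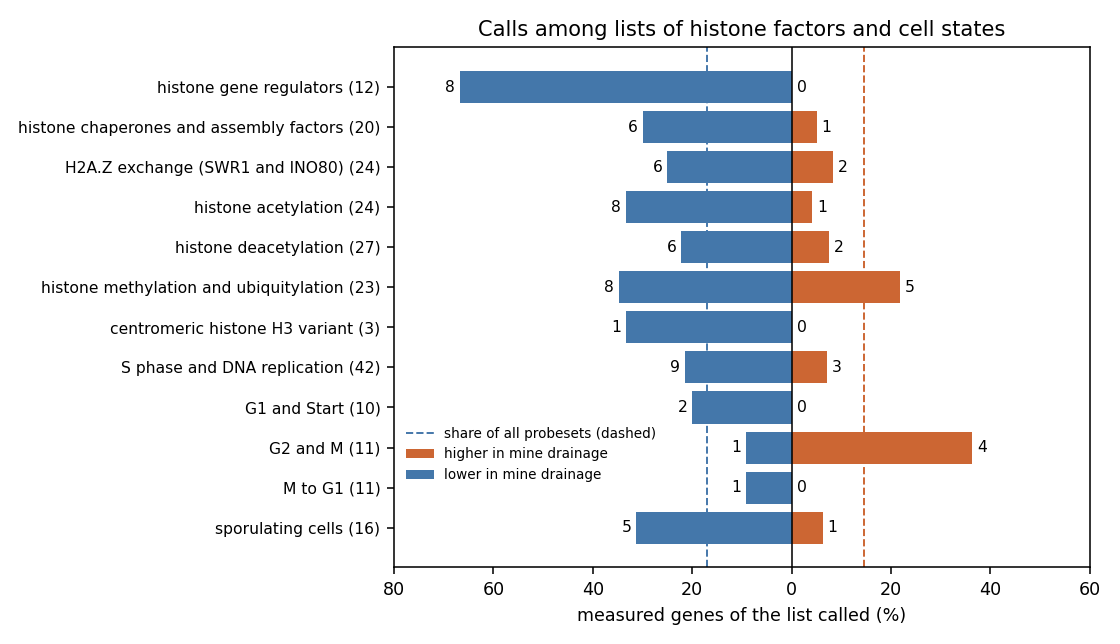
Share of the measured genes of each list (horizontal axis, in %) called higher (orange, right) or lower (blue, left) in mine drainage by limma at an adjusted p under 0.05, with the number called at each bar and the number measured in parentheses. The dashed lines mark 14.5% and 17.1%, the shares over all probesets tested, and 8 of the 12 histone gene regulators are lower.

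Lists of the cell cycle were counted because histone genes are transcribed in S phase. Of 42 S phase and DNA replication genes 9 fell, 3 rose and 30 did not pass (median -0.14). The shares were 21.4% lower and 7.14% higher, beside 17.1% and 14.5% of all probesets. No gene of this list was called higher without control replicate 2 or 3 or in the methods' analysis of variance. TOF1, of the replication fork, fell by 0.66, POL1, the catalytic subunit of DNA polymerase alpha, by 0.60, CDC45, of the replicative helicase, by 0.58, and the cohesin gene IRR1 by 0.51. RNR1, the large subunit of ribonucleotide reductase, and POL30, the replication clamp PCNA, rose instead, by 0.33 and 0.68, and these 2 were named after their values had been seen. The mean log2 signal of this list ran from 7.04 to 7.08 in control and from 6.82 to 7.02 in mine drainage.

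Among G1 and Start genes 2 of 10 fell (20%, beside 17.1% of all probesets) and none rose. Those that fell were NRM1, a co-repressor of MBF, by 0.74 and the cyclin gene CLN1 by 0.53. The count lower was 1 in the methods' analysis of variance and ran from 1 to 3 without single arrays. With the coding length trend subtracted, or without control replicate 1, 1 gene rose. Among G2 and M genes 4 of 11 rose (36.4%, beside 14.5% of all probesets), but only 1 without control replicate 2 or 3 or mine drainage replicate 3 or 4 and in the methods' analysis of variance, and 2 without mine drainage replicate 1. The median log2 difference of this list was 0.00. The genes that rose included ALK1, a protein kinase gene, by 0.80, CDC20, an activator of the anaphase promoting complex, by 0.40 and the mitotic cyclin gene CLB2 by 0.35, while the polo kinase gene CDC5 fell by 0.45. The mean log2 signal of the list ran from 7.32 to 7.45 in mine drainage and from 7.20 to 7.23 in control. Of 11 genes of the M to G1 interval only DSE1, of daughter cells, fell, by 0.70 (1 call, or 9.09%, beside 17.1% of all probesets), and this call was lost without control replicate 2 or 3 and in the methods' analysis of variance. Without control replicate 2 or 3, or in the methods' analysis of variance, the 218 distinct genes of all lists gave 26, 27 and 24 calls lower in place of 60, and 6, 5 and 3 higher in place of 19. Calls over all probesets in the same settings were 364, 446 and 368 lower in place of 942. Calls higher were 324, 415 and 362 in place of 795. Without mine drainage replicate 3 or 4 the lists gave 35 and 39 calls lower and 12 and 10 higher. All probesets then gave 591 and 607 lower and 543 and 511 higher. The calls lower of single lists ran from 2 to 7 for chaperones, 3 to 6 for the H2A.Z remodelers, 4 to 10 for acetylation, 3 to 9 for deacetylation, 2 to 10 for methylation and ubiquitylation and 2 to 10 for S phase when single arrays were left out.

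Markers of sporulating cells, a cell state that a yeast culture can hold beside dividing cells, were also counted; other states of a culture at 24 h were not. The mean log2 signal of the 16 markers ran from 3.99 to 4.11 in control and from 3.69 to 3.91 in mine drainage. Of these markers 5 fell and 1 rose, or 31.2% and 6.25%, beside 17.1% and 14.5% of all probesets. Their median log2 difference was -0.09, or 0.045 after a further quantile normalization. In the methods' analysis of variance 2 were called lower and 0 higher. The meiotic chromosome pairing gene ZIP1 fell by 1.13. SPS2 and SPS4, which are switched on in sporulation, fell by 1.00 and 1.07, to means of 2.68 and 2.25. Both means are low, as fission yeast histone probesets reached 2.19 on these arrays, so the size of these falls is uncertain. SMK1, a kinase gene needed to build spore walls, rose by 0.90. The part of these markers, of the cell cycle lists and of the 3' to 5' measure in the levels of the histone genes was not tested, other than by the covariate fit.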

How the data were processed

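The deposited values are log2 signals, which the authors made from 7 Affymetrix Yeast Genome 2.0 arrays with RMA in Partek Genomics Suite, including quantile normalization over all arrays. They were used as given. Of 10928 probesets, 5498 matched an S. cerevisiae gene of the R64 gene table through the platform annotation; for each gene the probeset with the highest mean over the 7 arrays was taken. Mine drainage was compared with control by limma (version 3.58.1, R 4.3.3), two-sided, with 5 residual degrees of freedom and Benjamini-Hochberg adjustment over the 5498 probesets. The scripts were tested on simulated data. The members and lists were chosen with earlier results of these data known. Named genes are all histone genes, up to 4 called genes of each list with the smallest adjusted p, the 5 genes most alike in profile, and ACT1. Lists were written by symbol, with IWS1 and CDC46 read as SPN1 and MCM5. The labels describe separate cultures. Hybridization and scan batches were not analysed here. The number of arrays limits the precision. Alternatives were the methods' ANOVA, other priors, weights and normalizations, filters on dim or shared probesets, a replicate block, the 3' to 5' covariate, a coding length trend and leaving out each array. Figures were drawn with matplotlib 3.10.9.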

Additional observations from a re-analysis of the deposited data

How the results depend on the processing

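The number of histone genes called higher, 2 as reported, was 1 in the methods' ANOVA, 5 with array weights (HTA1, HTB2, HHT1, HHT2 and HTZ1; the estimate stopped before it converged), 0 with the 3' to 5' covariate and 1 with the replicate block; it ran from 1 to 2 when single arrays were left out, and no histone gene was called lower in any setting. The calls over all probesets, 795 higher and 942 lower, were 362 and 368, 1476 and 1820, 228 and 283, and 432 and 497 in these same settings, and ran from 324 to 832 and from 364 to 980 without single arrays. Genes of all lists called higher and lower, 19 and 60, were 3 and 24 in the methods' ANOVA and ran from 5 to 19 and from 26 to 62 without single arrays. The sign of HTA1 turned with cyclic loess (-0.0027) and without control replicate 2 (-0.0577) or mine drainage replicate 2 (-0.0115), its leave-one-out values running from -0.06 to 0.17. That of HTB1 turned after a further quantile normalization (-0.0848), with cyclic loess (-0.0539), with the covariate (-0.134) and without mine drainage replicate 1 (-0.0313, range to 0.11). Neither passed in these settings; HTA1 passed only with array weights (0.32, limma adjusted p = 0.0211). No pairing of the cultures by replicate number was seen: deviations of same-numbered arrays correlated at -0.0651, -0.177 and 0.082. Those of differently numbered arrays ran from -0.181 to 0.298. So few values can neither show nor exclude a pairing. With the replicate block HTB2 differed by 0.61 and HHT2 by 0.45 (limma adjusted p = 0.0389 and 0.065). The copy differences kept their sign in all settings run, but with an array left out or the block no exact p under 0.05 is possible. The cause of these shifts was not tested.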
